A study of Mus musculus with 20 samples.

Results

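The genes described here encode 10 core subunits of the Polycomb repressive complexes, namely Ezh1, Ezh2, Eed, Suz12 and Jarid2 of PRC2 and Rnf2, Bmi1, Cbx2, Cbx7 and Cbx8 of PRC1. They were matched by symbol, and all 10 were found among the 25965 genes of the chromatin table and the 25067 genes of the RNA table. The libraries come from mouse germline stem cells (GSCs), cultured spermatogonial stem cells that keep dividing on a layer of fibroblast feeder cells. All GSCs carried floxed Kmt2b alleles and Rosa26-CreERT2, a tamoxifen-inducible Cre recombinase at the broadly active Rosa26 locus. Control cells (F/F) received ethanol as mock treatment, and knockout cells (FC/FC) received 4-hydroxytamoxifen (4-OHT) at 1 μM and were collected 6 days later. Each of H3K4me3, H3K27me3, input DNA and RNA has 2 libraries per genotype, from duplicate cell lines. H3K9me3 was measured in 2 F/F libraries with 2 inputs of their own, made with another library kit, and neither treatment nor day is given for them. Because ethanol and 4-OHT separate the genotypes in the same way, the loss of Kmt2b and the exposure to 4-OHT cannot be told apart.

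PRC2 places methyl groups on lysine 27 of histone H3, and its trimethylated form, H3K27me3, marks developmental genes that are kept silent. PRC1 ubiquitinates histone H2A, and its chromobox (Cbx) subunits in canonical complexes bind H3K27me3. Kmt2b is a methyltransferase for lysine 4 of the same histone, and H3K4me3 marks the start sites of most genes that can be transcribed. A promoter with both marks is called bivalent, and the male germline holds many of these at embryonic genes. The values below therefore describe, for the genes that make the Polycomb complexes, which marks their own start sites carried and how much of their RNA was present in each genotype.

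Chromatin values are reads per 1000000 mapped reads (RPM) in 1 window per gene, tied to the start site of the gene's row. Depth was 3830045 mapped reads in H3K4me3 FC/FC replicate 1 and 10360152 to 18035122 in the other H3K4me3 libraries. It was 10538531 to 14810135 for H3K27me3, 10967790 to 14405261 for the matched inputs, 41099186 to 63537169 for H3K9me3 and its inputs, and 38458010 to 45771857 for RNA. The shallow H3K4me3 library also had the smallest share of its reads in the windows among the 4 (20.7%), so H3K4me3 results are given with and without it. RNA of Kmt2b (listed as Wbp7) was 146 ± 5.62 RPM in F/F and 158 ± 37.6 RPM in FC/FC (SD, n = 2). These reads were summed over the whole gene, so they are no check of the deletion of single exons. Germ cell markers were present in the RNA, with 12 of 12 at 1 RPM or more.

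RefSeq promoters (build GRCm38.p6, the patched form of mm10) were found for 9 of the 10 genes, each reaching from 250 bases before to 50 bases after a start site. Of these, 4 are shown because the results below turn on their genes. Ezh2 had the lowest RNA of FC/FC relative to F/F, and Cbx8 the highest. Cbx7 had no H3K4me3 in its window, and Jarid2 had the least among the genes that carried the mark. The sequences run 5′ to 3′ along the strand of the gene, with each CpG dinucleotide in capitals.
Ezh2, chr6:47594981-47595280, minus strand: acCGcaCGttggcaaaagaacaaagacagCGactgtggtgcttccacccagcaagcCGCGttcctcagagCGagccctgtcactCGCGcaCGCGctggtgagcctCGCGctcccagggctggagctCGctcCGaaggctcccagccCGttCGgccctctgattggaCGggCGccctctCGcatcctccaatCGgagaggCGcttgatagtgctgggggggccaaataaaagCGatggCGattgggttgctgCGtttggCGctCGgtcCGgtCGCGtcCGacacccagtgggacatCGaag
Cbx8, chr11:119040864-119041163, minus strand: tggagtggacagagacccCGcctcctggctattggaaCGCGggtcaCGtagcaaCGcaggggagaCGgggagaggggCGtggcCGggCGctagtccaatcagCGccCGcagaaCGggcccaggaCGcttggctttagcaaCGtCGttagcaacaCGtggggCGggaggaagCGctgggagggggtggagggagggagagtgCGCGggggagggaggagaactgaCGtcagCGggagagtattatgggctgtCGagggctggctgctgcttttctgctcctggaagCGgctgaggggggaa
Cbx7, chr15:79932597-79932896, minus strand: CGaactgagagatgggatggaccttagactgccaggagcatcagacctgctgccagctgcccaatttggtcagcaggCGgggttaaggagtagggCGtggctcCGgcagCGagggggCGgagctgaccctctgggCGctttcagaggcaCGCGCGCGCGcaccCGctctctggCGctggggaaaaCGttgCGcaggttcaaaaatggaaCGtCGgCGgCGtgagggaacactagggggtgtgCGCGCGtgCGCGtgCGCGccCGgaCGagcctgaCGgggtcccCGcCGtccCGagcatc
Jarid2, chr13:44730524-44730823, plus strand: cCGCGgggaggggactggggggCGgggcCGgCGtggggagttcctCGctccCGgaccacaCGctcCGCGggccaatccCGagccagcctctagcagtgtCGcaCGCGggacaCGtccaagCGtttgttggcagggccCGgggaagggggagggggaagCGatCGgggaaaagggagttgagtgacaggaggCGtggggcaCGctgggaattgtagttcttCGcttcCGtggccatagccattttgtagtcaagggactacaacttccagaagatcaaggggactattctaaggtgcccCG

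These promoters were rich in CpG. The 10 promoters of the 9 genes held 17 (Eed) to 41 (Suz12) CpG dinucleotides with a median of 24, whereas the median of all 32851 promoters was 7. Ezh2 held 31, Cbx7 33, and Cbx8 and the Jarid2 promoter shown 24 each. The letters TTTGGCGC, a form of the E2F motif, were searched on both strands and occurred in 1 member promoter, that of Ezh2, near its 3′ end. They occur in 0.514% of all promoters of the table. The other E2F form TTTCGCGC, the palindromic NRF1 motif and the YY1 motif AAGATGGC were in no member promoter, and in 0.323%, 0.971% and 2.75% of all promoters. These matches describe letters only.

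The place of the window matters for 2 of the 9 genes with a RefSeq promoter. No RefSeq promoter was found for Cbx2, so the place of its window was not checked. In the chromatin table, 15 of 15 pairs of rows with the same start site and different ends had equal reads in all 16 libraries, and 0 of 29 pairs with the same end but different start sites did. The start site of the row lay within 311 bp of the RefSeq start for Ezh1, Ezh2, Eed, Suz12, Rnf2, Bmi1 and Cbx8. For Jarid2 the row started 1300 and 1797 bp upstream of the RefSeq starts. For Cbx7 the row (chr15:79915807-79971119, minus strand) started 38473 bp upstream of the RefSeq start, so the window of Cbx7 does not sit on the promoter shown. Marks at that RefSeq promoter were not analysed here.

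In control GSCs the start windows of 9 of the 10 genes carried H3K4me3 and none of the 10 carried H3K27me3. The catalytic PRC2 genes Ezh1 (chr11:101191115-101226463 in mm10, minus strand) and Ezh2 (chr6:47530274-47595341, minus strand) encode alternative H3K27 methyltransferases, and Ezh2 is the one that prevails in dividing cells. H3K4me3 at Ezh1 was 19.9 and 23.4 RPM in the F/F libraries, where input gave 0.274 and 0.486 RPM. At Ezh2 it was 17.8 and 23.8 RPM, where input gave 0.638 and 0.833 RPM. Both H3K4me3 libraries lay far above both inputs at each gene. Eed (chr7:89954656-89980983, minus strand) encodes the subunit that reads H3K27me3 and stimulates the enzyme, and Suz12 (chr11:79993106-80034123, plus strand) the scaffold of PRC2. Eed had 19.2 and 25.0 RPM and Suz12 22.4 and 25.4 RPM of H3K4me3. Jarid2 (chr13:44729474-44921643, plus strand), a DNA-binding accessory subunit, had 9.85 and 11.9 RPM, the lowest of the 9 in either library.

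Among PRC1 genes, Rnf2 (chr1:151469406-151500823, minus strand) encodes RING1B, the ubiquitin ligase, and had 24.8 and 28.0 RPM. Bmi1 (chr2:18677018-18686629, plus strand), the Pcgf partner of the ligase in canonical PRC1, had 17.6 and 19.2 RPM. Cbx2 (chr11:119022962-119031270, plus strand) and Cbx8 (chr11:119036305-119040969, minus strand) encode chromobox readers and are neighbours, with starts 18007 bp apart. Cbx2 had 25.7 and 24.1 RPM, and Cbx8 20.3 and 21.5 RPM. Cbx7, a further chromobox reader, had 0.193 RPM (2 reads) and 0.554 RPM (10 reads), no more than the 0.365 and 0.625 RPM of input there. Ranked by the F/F mean among all windows (median 8.65 RPM), Rnf2 stood at percentile 93.1, Cbx2 at 89.6, Suz12 at 87.3 and Eed at 82.3. Ezh1 followed at 80.8, Cbx8 at 78.3, Ezh2 at 78.0, Bmi1 at 70.3, Jarid2 at 53.6 and Cbx7 at 35.2. From Rnf2 down to Bmi1 the replicate range of each gene overlapped that of the next in this order, so neighbours there are not resolved. Both values of Jarid2 lay below all of these, and both values of Cbx7 lay lower still.

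**Figure D1:**
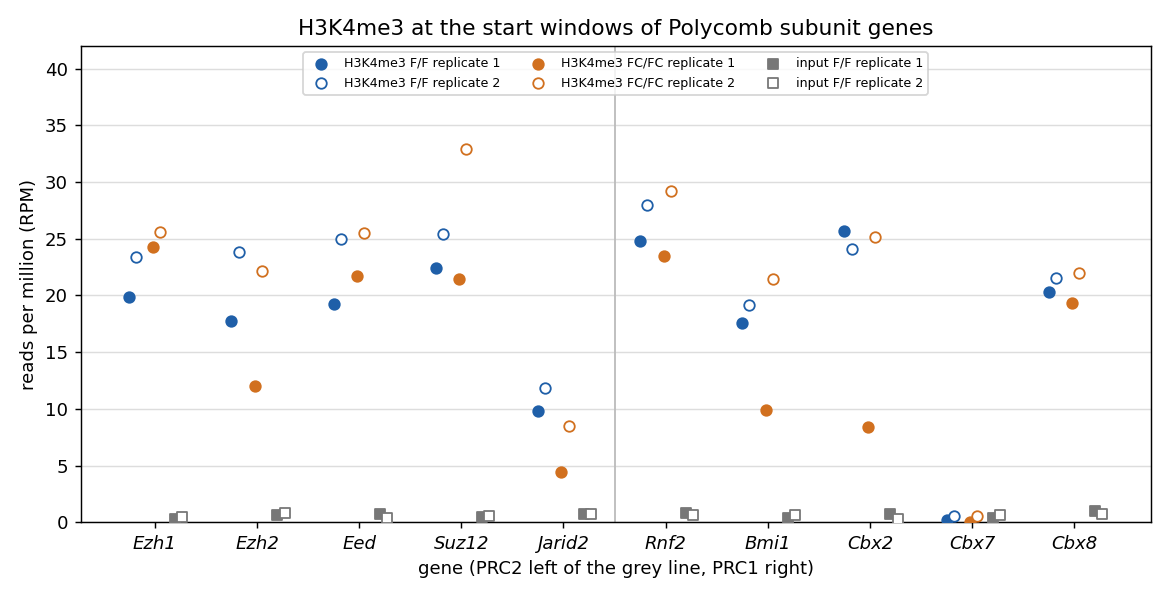
H3K4me3 in RPM (vertical axis) at the start window of each gene, with 1 point per library for H3K4me3 in F/F and FC/FC and for F/F input. All genes but Cbx7 lie well above input, and FC/FC replicate 1, the shallowest library, is the low point at Bmi1, Cbx2, Ezh2 and Jarid2.

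The excess of H3K4me3 over input in F/F passed limma's test at 9 of 10 genes, where 62.7% of all windows were called higher and 9.88% lower. On the log2(RPM + 0.5) scale the differences ran from 3.18 (Jarid2; SE 0.27) to 4.70 (Cbx2; SE 0.24), and the median of the 10 was 4.36, beside 3.28 over all windows tested. Cbx7 differed from input by -0.21 (SE 0.33; limma adjusted p = 0.573).

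H3K27me3 reads were few at every one of these genes. No gene had more than 9 reads in any H3K27me3 library, and mean H3K27me3 was below mean input at 10 of 10 genes in F/F and at 10 of 10 in FC/FC. How many of all windows had this order was not counted. Low values are usual in these libraries, with a median window of 0.388 RPM in F/F. Ranked by the F/F mean among all windows, the 10 genes ran from percentile 6.65 (Cbx7) to 71.0 (Cbx8), with Suz12 at 51.5 and Ezh2 at 65.9. Ezh1 had 0.479 and 0.183 RPM of H3K27me3 in F/F beside the input values given above. Cbx8 had the most, with 0.547 and 0.641 RPM beside inputs of 1.00 and 0.764 RPM. At both genes H3K27me3 was within or under the range of input. Against input in F/F, 0 of 10 passed limma's test and 2 were lower at an unadjusted p under 0.05, where 13.2% of all windows were called higher, 4.94% lower, and 13.4% were lower at the unadjusted threshold. The log2 differences ran from -0.83 (Jarid2; SE 0.35, adjusted p = 0.0796) to -0.09 (Ezh1; SE 0.33, adjusted p = 0.872), with a median of -0.44 beside -0.13 over all windows. At these depths a library with 0 reads still allows 0.203 to 0.285 RPM (3 reads, counting error only).

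H3K9me3 is a mark of constitutive heterochromatin and silenced repeats. Its reads were more numerous in the Cbx7 window than at the other genes. That window lies 38473 bp upstream of the RefSeq start of Cbx7, so the values do not describe the promoter shown. The other 9 had 0 to 7 reads in each H3K9me3 library, below both inputs in both libraries. Bmi1 had 0 reads in both, which allows up to 0.0730 and 0.0592 RPM, where the inputs held 0.299 and 0.426 RPM. All 9 were lower than input by limma's test, from -0.94 (Cbx8; SE 0.12) to -0.43 (Ezh1; SE 0.10) on the log2(RPM + 0.5) scale, and 81.4% of all windows were called lower and 6.13% higher. The median over the 10 was -0.66 and so was that over all windows, so the low H3K9me3 of the 9 genes is the usual state of windows in this table. Cbx7 had 1.24 RPM (51 reads) and 0.632 RPM (32 reads), where its inputs held 0.614 RPM (39 reads) and 0.568 RPM (24 reads). Both values were above both inputs, but by a log2 difference of 0.36 (SE 0.26, 95% interval -0.20 to 0.92) that did not pass limma's test (adjusted p = 0.197). Without H3K9me3 replicate 2 the difference was 0.67, and without H3K9me3 replicate 1 it was 0.05. Among all windows the mean H3K9me3 of Cbx7 stood at percentile 96.6, and so did the mean of its inputs.

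**Figure D2:**
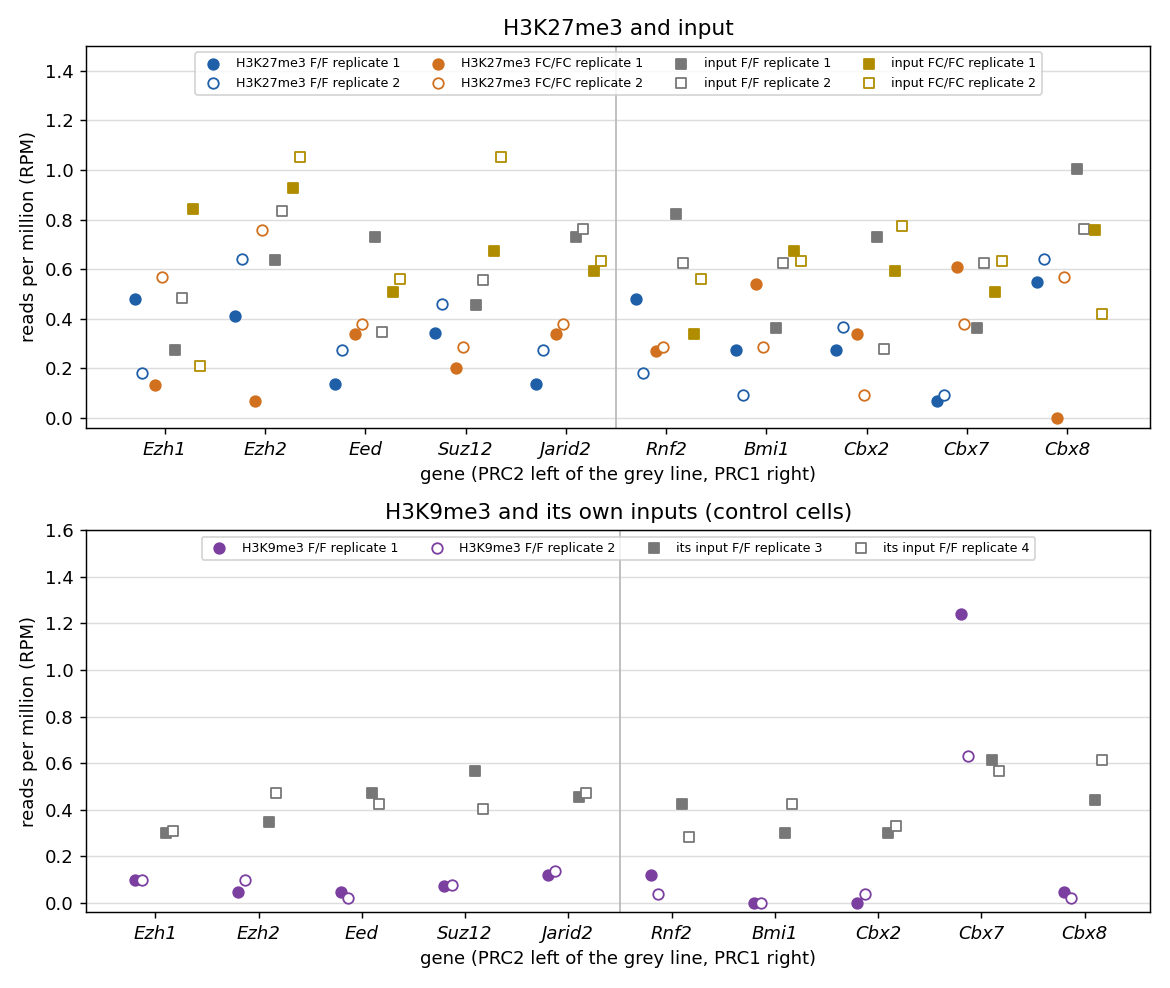
Repressive marks in RPM (vertical axes) at the same windows, with 1 point per library: H3K27me3 and matched input in both genotypes (upper panel), and H3K9me3 and its own inputs in F/F (lower panel). Mean H3K27me3 is below mean input at each of the 10 genes in both genotypes, and in H3K9me3 Cbx7 alone has points above its inputs.

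Promoter classes were set from the ratio to the same-numbered input, with H3K4me3 counted as present at a log2 ratio of at least 1.5 in both libraries and H3K27me3 at 1 or more in both. In F/F, 9 genes were in the class with H3K4me3 only, which holds 49.9% of all windows, and Cbx7 was in the class with neither mark (40.3%). None was in the class with both marks (7.68%) or with H3K27me3 only (2.13%). In FC/FC the same 9 genes were again in the class with H3K4me3 only (44.2% of windows) and Cbx7 in that with neither (42.7%), and none in those with both marks (7.42%) or H3K27me3 only (5.71%). The highest H3K27me3 ratio of any of the 10 genes in a single library was 0.59, at Ezh1 in FC/FC replicate 2. RNA reached the level tested in 88.6% of genes of the class with H3K4me3 only and in 21.1% of those with neither mark, and Cbx7 was among the latter. The window of Cbx7 lies 38473 bp upstream of its RefSeq start, so its class does not describe the promoter shown.

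H3K4me3 was then compared between genotypes, which asks whether these start sites depend on Kmt2b. No gene of the 9 tested passed limma's test in either direction, and 1, Cbx2, was lower at an unadjusted p under 0.05. Over all windows, 9.93% were called lower and 0.0512% higher, and 24.7% were lower at an unadjusted p under 0.05. Cbx7 was not tested because its mean was under 1 RPM. The median log2 change of the 9 was -0.02 beside -0.26 over all windows. With each library set to the same median, 1491 windows were called lower and 621 higher, in place of 1550 and 8, and still none of these genes.

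Cbx2 and Jarid2 had the lowest values in FC/FC relative to F/F. Cbx2, at 25.7 and 24.1 RPM in F/F, had 8.35 RPM (32 reads, 95% Poisson interval 5.71 to 11.8) in FC/FC replicate 1 and 25.2 RPM in replicate 2. Only FC/FC replicate 1 was low, and replicate 2 lay between the F/F libraries. The log2 change was -0.78 (SE 0.30, 95% interval -1.36 to -0.20; limma adjusted p = 0.067). This SE comes from limma's trend over all windows, so the split between the FC/FC libraries of Cbx2 does not widen the interval. It was 0.02 without FC/FC replicate 1, and -1.57 (limma adjusted p = 1.21e-09) without FC/FC replicate 2. Jarid2, at 9.85 and 11.9 RPM in F/F, had 4.44 RPM (17 reads) and 8.44 RPM in FC/FC. Both FC/FC libraries were below both F/F libraries. The log2 change was -0.82 (SE 0.45, 95% interval -1.71 to 0.07; limma adjusted p = 0.248), and -0.36 without FC/FC replicate 1. After quantile normalization it was 0.06.

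The same split between the FC/FC libraries appeared at Ezh2 and Bmi1. Ezh2 had 12.01 and 22.1 RPM in FC/FC, and Bmi1 9.92 RPM (38 reads) and 21.4 RPM. In both cases replicate 1 was below, and replicate 2 within or above, the F/F range. The log2 changes were -0.34 at Ezh2 (SE 0.30; limma adjusted p = 0.576) and -0.33 at Bmi1 (SE 0.32; adjusted p = 0.619), and 0.11 and 0.22 without FC/FC replicate 1. Without FC/FC replicate 2, when the spread came from the F/F pair alone, Ezh2 (-0.78), Bmi1 (-0.89), Jarid2 (-1.28) and Cbx2 were called lower, 4 of 9, as were 44.1% of all windows. H3K4me3 was below that of replicate 2 in FC/FC replicate 1 at 10 of 10 genes, and below both F/F libraries at 8 of 10. Both counts include Cbx7, with 0 and 9 reads in FC/FC. The share of reads in all windows was 20.7% in replicate 1 and 27.2% in replicate 2. How many of all windows had this order was not counted. The part of depth in these values was not tested.

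At the other genes FC/FC replicate 1 was less far from the F/F libraries. Ezh1 had 24.3 and 25.6 RPM in FC/FC, both above the F/F values, with a log2 change of 0.21 (SE 0.26, 95% interval -0.29 to 0.71). Ezh1 and Jarid2 were the 2 of 9 genes whose groups did not overlap, and the groups did not overlap at 51.8% of all windows. Eed had 21.7 and 25.5 RPM, Suz12 21.4 and 32.9 RPM, Rnf2 23.5 and 29.2 RPM and Cbx8 19.3 and 22.0 RPM. Their log2 changes were 0.10 at Eed, 0.15 at Suz12, -0.01 at Rnf2 and -0.02 at Cbx8, with limma adjusted p from 0.806 to 0.992. The interval at Rnf2 reached from -0.47 to 0.45, so changes smaller than this could not be resolved with 2 libraries per group. Cbx7 was again no higher than input, with 0 reads in FC/FC replicate 1, which allows up to 0.783 RPM, and 0.543 RPM (9 reads) in replicate 2, where inputs held 0.507 and 0.632 RPM. Without FC/FC replicate 1 the log2 changes were 0.25 at Ezh1, 0.22 at Eed, 0.46 at Suz12, 0.15 at Rnf2 and 0.08 at Cbx8, and again none of the 9 genes was called.

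H3K27me3 gave no test between genotypes at the main filter, since 0 of 10 genes reached a mean of 1 RPM. Of the 4807 windows that did, 0.791% were called higher in FC/FC and 0 lower. With every window that had a read included, none of the 10 passed, and the limma adjusted p ran from 0.623 to 0.992. The smallest belonged to Cbx7, with 1 read in each F/F library and 9 and 4 reads in FC/FC, or 0.608 and 0.380 RPM. Those FC/FC values lay around the FC/FC inputs of 0.507 and 0.632 RPM. Cbx8 had 0 reads in FC/FC replicate 1 and 6 in replicate 2, and Ezh2 1 read and 8 reads. Counts this small do not resolve differences between genotypes.

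RNA of all 10 genes was present at 18.7 RPM or more in every library, as 721 to 6437 reads, and 0 of 10 passed limma's test between genotypes. At an unadjusted p under 0.05, Ezh2 was lower and Cbx7 and Cbx8 were higher. Over all genes tested, 0.312% were called lower and 3.01% higher, and 3.6% and 16.5% were lower and higher at the unadjusted threshold. With each library set to the same median the calls were 114 lower and 266 higher in place of 44 and 425. The median log2 change of the 10 was -0.01 beside 0.06 over all genes. The groups did not overlap at 4 of 10 genes (Ezh2, Eed, Cbx7 and Cbx8) and at 52.2% of all genes tested. In these bulk libraries fewer cells of a type and less RNA per cell cannot be told apart. RPM of RNA is not divided by transcript length, so levels are compared within a gene only.

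The 3 genes that differed most in RNA were the dividing-cell methyltransferase and 2 chromobox readers. Ezh2 RNA was 38.3 and 40.2 RPM in F/F and 29.6 and 31.4 RPM in FC/FC, so both FC/FC libraries were lower. The log2 change was -0.36 (SE 0.10, 95% interval -0.60 to -0.13; limma adjusted p = 0.0997), and it lay between -0.46 and -0.32 under all 10 alternatives. Median centring called it (-0.46; limma adjusted p = 0.0437), where it was the single gene of the 10 to pass and 0.809% of all genes were called lower. Calls in fits with 1 FC/FC library left are not counted, since their spread comes from the F/F pair alone. The paralogue Ezh1 had 96.0 and 102 RPM in F/F and 93.2 and 114 RPM in FC/FC, with a log2 change of 0.06 (SE 0.12; limma adjusted p = 0.832).

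Cbx8 RNA was 18.7 and 20.9 RPM in F/F and 27.6 and 27.8 RPM in FC/FC. Cbx7 RNA was 31.3 and 32.3 RPM in F/F and 40.7 and 45.2 RPM in FC/FC. At both genes each FC/FC library was above each F/F library. The log2 changes were 0.49 at Cbx8 (SE 0.11, 95% interval 0.24 to 0.74; limma adjusted p = 0.0597) and 0.43 at Cbx7 (SE 0.10, 95% interval 0.19 to 0.67; limma adjusted p = 0.0725). They ranged over the 10 alternatives from 0.39 to 0.56 and from 0.34 to 0.51. The replicate block called both, and it called 9.16% of all genes higher. Calls in fits with 1 FC/FC library left are not counted here, since their spread comes from the F/F pair alone. The row of Cbx7 overlaps Apobec3 on the opposite strand by 100 bp, and the strand setting of the counts is not given. H3K4me3 at Cbx8, printed above, differed by -0.02 on the log2 scale between the same genotypes. Cbx2, the neighbour of Cbx8, had 134 and 144 RPM of RNA in F/F and 121 and 161 RPM in FC/FC, and the F/F values lay inside the FC/FC range.

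**Figure D3:**
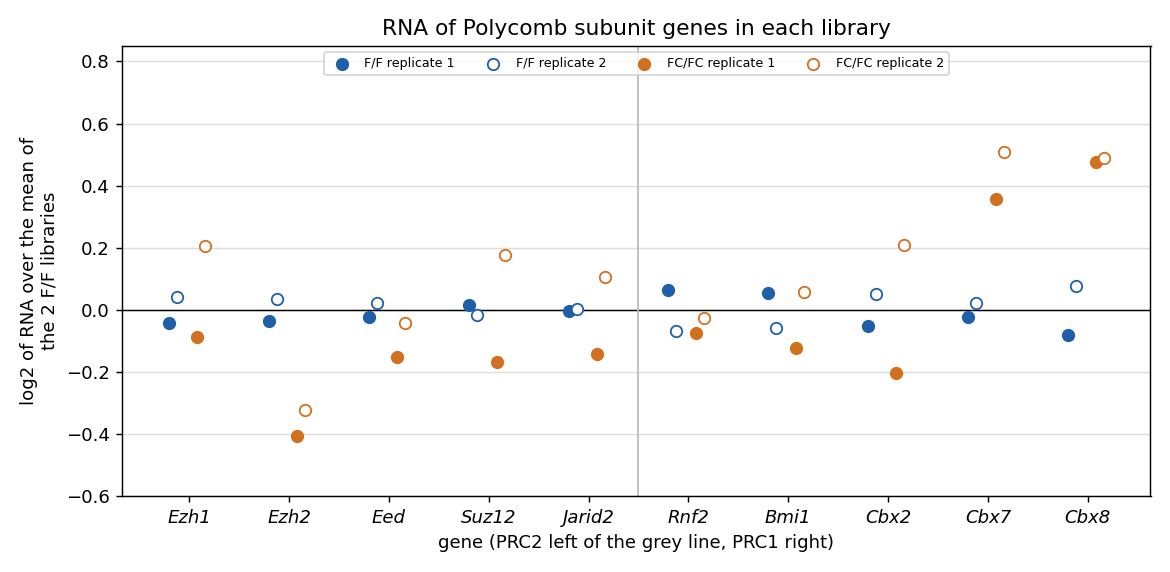
RNA of each gene in each library, as log2 of RPM over the mean of the 2 F/F libraries (vertical axis, 0 is the F/F mean). Ezh2 lies below and Cbx7 and Cbx8 lie above the F/F points in both FC/FC libraries, whereas at Suz12, Jarid2 and Cbx2 the 2 FC/FC points fall on either side.

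The RNA of the other subunits differed little between genotypes on average. Eed had 101 and 105 RPM in F/F and 92.9 and 100.1 RPM in FC/FC, both FC/FC values being lower (log2 change -0.10, SE 0.09; limma adjusted p = 0.642). Suz12 had 86.6 and 84.6 RPM in F/F and 76.2 and 96.8 RPM in FC/FC, and Jarid2 141 and 142 RPM in F/F and 128 and 153 RPM in FC/FC. At these genes, as at Cbx2, the F/F values fell between the FC/FC values. Rnf2 had 33.2 and 30.3 RPM in F/F and 30.1 and 31.2 RPM in FC/FC, and Bmi1 61.1 and 56.5 RPM in F/F and 53.9 and 61.2 RPM in FC/FC. For Suz12, Jarid2, Rnf2, Bmi1 and Cbx2 the log2 changes lay between -0.05 and 0.01, with limma adjusted p from 0.844 to 0.991. The intervals were -0.29 to 0.19 at Rnf2 and -0.29 to 0.30 at Suz12.

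All 10 genes had more RNA in FC/FC replicate 2 than in FC/FC replicate 1. The share of mapped reads that fell in genes of any kind was 72.7% in replicate 2 and 67.7% in replicate 1. How many of all genes had this order was not counted, so it is not read as a trait of these 10. Feeder cell RNA differed between the same libraries. The summed level of 18 fibroblast feeder markers, of which 16 reached 1 RPM, was 547 and 579 RPM in F/F and 599 and 763 RPM in FC/FC, and 9 of the 18 were higher in both FC/FC libraries than in both F/F libraries, and 0 lower. The 2 most abundant differed. Col1a1 had 131 and 142 RPM in F/F and 202 and 245 RPM in FC/FC, and Fn1 had 177 and 184 RPM in F/F and 138 and 199 RPM in FC/FC. Germ cell markers summed to 2101 and 2046 RPM in F/F and 2085 and 2333 RPM in FC/FC. Of these 12 markers, 7 were higher in both FC/FC libraries than in both F/F libraries, and 1 was lower. Over all genes tested, the groups did not overlap, in either direction, at 52.2%. The share of all genes that were higher in both FC/FC libraries was not counted, so a background for the counts in that direction is missing. Markers of Sertoli and Leydig cells summed to 22.4 to 28.0 RPM, with Hsd3b1 and Cyp17a1 at 0 reads, and those of blood cells and macrophages to 4.73 to 6.25 RPM. The part of feeder RNA in the differences of Ezh2, Cbx7 and Cbx8 was not tested.

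**Figure D4:**
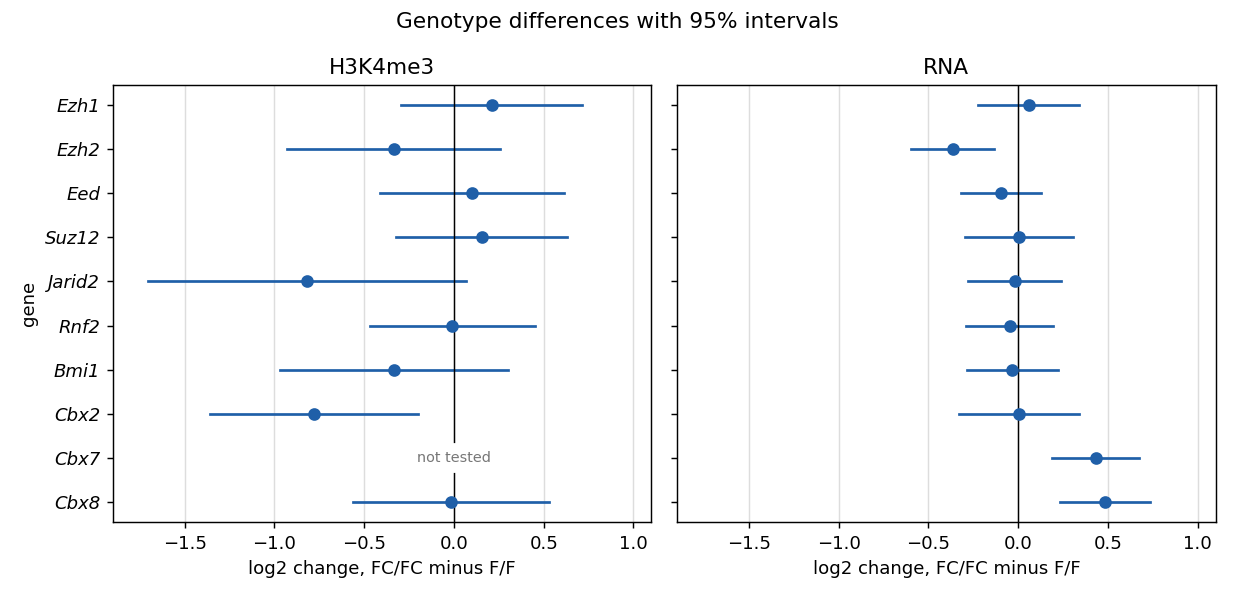
Log2 changes of FC/FC against F/F (horizontal axes) in H3K4me3 (left) and RNA (right) for each gene, as points with 95% intervals from limma. In H3K4me3 the interval of Cbx2 alone excludes 0, in RNA those of Ezh2, Cbx7 and Cbx8 do, and none passed the test after adjustment over all genes. The H3K4me3 intervals take their spread from limma's trend over all windows, not from the libraries of each gene.

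The marks and RNA together gave each gene a profile of 7 group means on the log2(RPM + 0.5) scale, covering H3K4me3, H3K27me3 and RNA in each genotype and H3K9me3 in F/F. The closest pair of the 10 genes was Ezh1 and Eed (Euclidean distance 0.31), followed by Ezh1 and Suz12 (0.43) and Eed and Suz12 (0.57). Among all genes of the RNA table, those closest to Ezh1 were Rpl36 (0.22), Rrp1 (0.23) and Iws1 (0.24). Those closest to Jarid2, which had the lowest H3K27me3 over input, were Nmb (0.43), Nsd1 (0.54) and Cul1 (0.58). The distances describe levels over few group means that share libraries, and RNA enters them without correction for length.

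The other subunits of the Polycomb complexes were counted in 4 lists of 41 genes, with 10 PRC2 accessory genes, 9 of canonical PRC1, 14 of variant PRC1 and 8 of the PR-DUB deubiquitinase. H3K4me3 exceeded input in F/F at 39 of 41 and was below it at 1, Pcgf5, and 38 of 41 were in the class with H3K4me3 only. Over all windows 62.7% were called higher and 9.88% lower, and 49.9% were in that class. The excess was highest at Pcgf2 (5.06 on the log2(RPM + 0.5) scale), a Pcgf partner like Bmi1, and at Bap1 (4.85), the PR-DUB deubiquitinase, Rbbp4 (4.83) and Scmh1 (4.82). H3K9me3 was below input at 38 of 41, beside 81.4% of all windows, and was lowest relative to input at Pcgf3 (-1.05) and Cbx6 (-1.02). Between genotypes 0 of 39 tested passed limma's test in H3K4me3, 0 of 3 in H3K27me3 and 0 of 40 in RNA. At an unadjusted p under 0.05 there were 2 lower in H3K4me3, 1 higher in H3K27me3, and 1 lower and 4 higher in RNA. Over all rows tested, 24.7% were lower at this threshold in H3K4me3, and 3.6% lower and 16.5% higher in RNA. The share for H3K27me3 is not given here. With limma voom on recovered reads, 1 passed in H3K4me3 (lower, as did 16.7% of all windows) and 1 in RNA (higher, as did 2.94% of all genes).

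Phf19, a PRC2 accessory subunit that binds H3K36-methylated histone, was the 1 of 41 with H3K27me3 above input and the only one of these and the 10 core genes in the class with both marks. Over all windows 13.2% were called above input and 7.68% were in that class. The values of Phf19 follow. Its H3K27me3 was 4.99 and 2.47 RPM in F/F, where input gave 0.729 and 0.555 RPM (log2 difference 1.83, SE 0.40; limma adjusted p = 8.2e-05). Without input replicate 1 or 2 the difference was 1.94 or 1.72. Those fits could not test its call, as the calls over all rows in the last paragraph show. Its H3K4me3 was 15.8 and 19.1 RPM in F/F and 5.74 and 12.3 RPM in FC/FC, with both FC/FC libraries lower (log2 change -1.05, SE 0.38; limma adjusted p = 0.0542), and the change was -0.50 without FC/FC replicate 1. Its RNA was 0.780 and 0.744 RPM in F/F and 1.57 and 1.799 RPM in FC/FC, with both FC/FC libraries higher (log2 change 1.14, SE 0.24; limma adjusted p = 0.0525). Neither difference between genotypes passed the test. Limma voom on recovered reads (adjusted p = 0.0348 and 0.0436) and a fit with the replicate number as a block (adjusted p = 0.00183 and 0.00393) called both. The block fit called 25.8% of all windows lower in H3K4me3 and 9.16% of all genes higher in RNA. The labels do not say that equal replicate numbers mark the same line. Aebp2, another PRC2 accessory gene, had a log2 change of H3K4me3 of -1.40 (SE 0.60; limma adjusted p = 0.114). It was -1.13 without FC/FC replicate 1, -0.60 over input and -0.12 after quantile normalization, and input at the same window had a log2 change of -1.40 (limma adjusted p = 0.972). In H3K27me3 the smallest p belonged to Asxl3, a PR-DUB gene, with a log2 change of 1.83 (SE 0.76; limma adjusted p = 0.259) that was 0.98 without FC/FC replicate 1. RNA of Epop, a PRC2 accessory gene listed as E130012A19Rik, had a log2 change of 0.45 (SE 0.10; limma adjusted p = 0.0595).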

How the data were processed

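The authors deposited log2 values of reads per 1000000 mapped reads (RPM), 1 window per gene for chromatin (16 libraries) and 1 value per gene for RNA (4 libraries), as the file headers and labels show. Per the submitters' processing notes, the build was mm10 and the tools were TopHat2 2.0.14, Bowtie 1.1.1, Trim Galore 0.4.0 and CASAVA 1.8, in roles not given in the sources used here. Window size and the strand setting of the RNA counts are not given in the sources used here either. The values were not divided by input or gene length. Values were whole multiples of 1 read within 0.1 of a read (100% of values), with 0 reads entered as 0.9 of a read, so reads and depth were recovered.

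Each genotype comparison was fitted with limma 3.58.1 (R 4.3.3; mean-variance trend, two-sided, Benjamini-Hochberg over all rows, call at adjusted p under 0.05) on the deposited log2 values. The filter kept windows whose mean reached 1 RPM and, in RNA, genes whose mean log2 RPM reached 0. Marks were tested against input on log2(RPM + 0.5). Fits held the 2 groups compared only, without a replicate block. The genotype fits of H3K4me3, H3K27me3 and RNA and the fit of H3K4me3 over input were also run on simulated counts. These had the same relative spread beyond counting error in every row and no difference between libraries in the share of reads in windows. The setting differs from the real libraries, so no result is drawn from it. The p-values rest on the spread between duplicate lines, which limma shrinks toward a trend over all rows. In the main fits of H3K4me3, H3K27me3 and input this shrinkage was complete. There the SE of a gene follows the trend at its level and not the spread of its own libraries. In RNA and H3K9me3 the shrinkage was partial. Intervals on reads and the limit of 3 reads for a count of 0 cover counting error only.

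All 10 genes were named in every comparison. Of the other Polycomb lists, up to 4 genes called, or else the 2 with the smallest p, were eligible to be named, and Pcgf5, Col1a1 and Fn1 were named after their values were seen. The genes, lists and tests were chosen with earlier results of these data known. Alternatives were other offsets, filters, scalings, limma voom on recovered reads, a replicate block, input subtraction and leaving out each library.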

Additional observations from a re-analysis of the deposited data

How the results depend on the processing

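Among the 10 genes, no call of H3K4me3 or H3K27me3 over input changed under other offsets, the replicate block or with a library left out. For H3K27me3 the fits without an input library could not test this, as the calls over all rows below show. A filter at a mean of 1 RPM kept 9 genes in H3K4me3, all still called, and none in H3K27me3 or H3K9me3, so it tested nothing there. H3K9me3 calls changed without replicate 2, where Cbx7 was called higher and Rnf2 lost its call (-0.45; limma adjusted p = 0.0587), with 9 of 10 called either way. In H3K4me3 between genotypes, 0 genes were called, 1 with the replicate block (Cbx2, -0.78; limma adjusted p = 0.00245), and 0 to 4 with a library left out. In RNA, 0 were called, 1 with median centring (Ezh2), 2 with the replicate block (Cbx7 and Cbx8; limma adjusted p = 0.0215 and 0.00701), and 0 to 7 with a library left out. Leaving out FC/FC replicate 1 turned the log2 change of Jarid2 RNA from -0.02 to 0.11 (-0.14 without FC/FC replicate 2). Leaving out FC/FC replicate 2 turned those of Suz12 and Cbx2 RNA to -0.17 and -0.20 (0.18 and 0.21 without FC/FC replicate 1). In such fits the spread comes from the other genotype alone. The replicate block was an alternative only, as the labels do not say that equal numbers mark the same line. Deviations of same-numbered libraries correlated at 0.148 for H3K4me3, 0.0617 for H3K27me3 and 0.0909 for RNA. No block was fitted for H3K9me3, whose inputs carry other numbers. Of the other Polycomb genes the block also called Aebp2 in H3K4me3 (limma adjusted p = 0.0235), Asxl3 in H3K27me3 (0.0477) and Epop in RNA (0.0136).

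Calls over all rows moved more. In H3K4me3, 1550 windows were called lower and 8 higher. The numbers were 1028 and 56 without a filter, 486 and 309 after quantile normalization, 2600 and 113 with limma voom, 4036 and 70 with the block, 320 and 0 over input, 893 and 72 without FC/FC replicate 1, and 6879 and 128 without FC/FC replicate 2. Without either F/F library 0 were lower by limma (694 and 218 at an unadjusted p under 0.05) and 4 and 2 higher. In H3K27me3, 0 were lower and 38 higher, with 202 and 81 after median centring, 0 and 3 after quantile normalization, 7 and 1206 with the block, 0 and 4 over input, and 0 to 152 higher with a library left out. In RNA, 44 were lower and 425 higher, with 20 and 50 after quantile normalization, 195 and 1292 with the block, 28 and 227 without F/F replicate 1, 1442 and 5257 without FC/FC replicate 1, and 3095 and 2953 without FC/FC replicate 2, so the 7 genes called in each of these last fits stand beside 10.2% of all genes lower and 37.3% higher, and 22% and 20.9%. Without a filter none was called by limma in RNA (669 lower and 2892 higher at an unadjusted p under 0.05). The 1240 lower and 3317 higher windows of H3K27me3 over input became 0 and 0 without either input library (1641 lower and 2515 higher without input replicate 1, and 1455 and 2670 without input replicate 2, at an unadjusted p under 0.05). The cause was not tested. At most 9 reads of H3K27me3 lay at any of the 10 genes in a library, which limits the differences that can be seen there.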
